A study of Mus musculus with 17 samples.

Results

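The comparison set 9 lines of 32D cells, each carrying a different mutant of the human receptor FLT3 with an internal tandem duplication (ITD), against a 32D line carrying the empty retroviral vector pLXRN. The 11 arrays, 9 of ITD lines and 2 of the vector line, were taken by their titles from the 17 arrays of the series. The ITD lines grew without IL-3, and the vector line was kept in 1 ng/mL of mouse IL-3. A further 2 arrays of parental 32D cells, which were not transduced and grew with the same dose of IL-3, were used to separate genes that the vector line alone set apart from the parental cells. The 2 arrays of cells with wild-type human FLT3, grown with IL-3 at 1 ng/mL and no added ligand, are given beside them as levels. The remaining 2 arrays, of wild-type FLT3 cells that received FLT3 ligand at 20 ng/mL, entered only the estimate of spread.

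All transduced lines were polyclonal populations made with a retrovirus that infects rodent cells. Per the protocols, the vector and wild-type lines were selected with the antibiotic G418 in IL-3, while the ITD lines were moved to medium without IL-3 shortly after transduction. The mutant receptor, the absence of IL-3 and the way the lines were selected therefore cannot be told apart in this comparison. Each ITD line had 1 array. Each control group has 2 arrays, titled as biological replicates, and whether those were separate cultures was not stated. The vector line is 1 line, so the spread between vector lines was not measured. Each p-value rests on a spread pooled within groups over all arrays of the series. Differences between the ITD lines therefore enter every p-value, including those between vector and parental cells.

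32D is a mouse myeloid line that resembles early granulocyte precursors and needs IL-3 to survive and divide. FLT3 is a tyrosine kinase receptor on early blood cells, and the ITD in its juxtamembrane region, found in acute myeloid leukaemia, makes it signal without ligand through the RAS-ERK, PI3K and STAT5 pathways. Signals of that kind can replace IL-3, whose own receptor also acts through STAT5. Genes of the interferon response, such as the Oas, Ifit and Mx families, are switched on by factors such as STAT2 and IRF9 when cells meet interferon or viral nucleic acid.

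A gene value was the mean log2 signal of its probe sets, and 20227 genes were tested. The median probe set value of an array was between 4.63 and 4.69 (log2). Precision is limited by how many arrays there are. Across genes, which are not independent replicates, the 2 vector arrays correlated at 0.983, pairs of ITD arrays at a median of 0.9768, ITD with vector arrays at 0.9627 and vector with parental arrays at 0.9674. Of 11 myeloblast markers measured, 4 were lower in ITD than vector cells (Spi1, Cebpa, Ptprc and Ctsg), against 5.21% of all genes, and 2 without either vector array. Averaged over the 11, the vector arrays stood at 10.01 and 10.05 and the ITD arrays between 9.39 and 9.74, while Kit, a marker of early progenitors, was dim in every group, between 5.41 and 5.88 on these arrays. In the mean of the 11 markers the wild-type FLT3 arrays, at 9.54 and 9.55, lay within the range of the ITD lines. Of 10 lymphocyte markers measured, none was called in either direction. Of 7 fibroblast markers 1 was called (Thy1), and of 6 plasmacytoid markers 1 (Bst2), against 14.0% of all genes.

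Flt3, which reads the introduced receptor, was at 5.15 and 5.24 on the vector arrays and 5.37 and 5.12 on the parental arrays. On the ITD arrays it ran from 7.08 to 7.32 (median 7.12), so the groups did not overlap. It was higher by 1.96 ± 0.088 (adjusted p 1.79e-09), which is 3.89-fold. The receptor is human and the probe sets were designed on the mouse gene, and 7 of 30 probe sets, 6 of the 19 used, had every ITD array above every vector and parental array. The single largest reached 9.25 (log2), so the gene value understates the difference in the transgene. The vector line was not called apart from parental cells in Flt3, at a difference of -0.051 ± 0.11 (adjusted p 0.891).

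Genes with a Benjamini-Hochberg adjusted p under 0.05 in limma, over all genes, are referred to as called, and differences are log2 values with their standard error (SE). Between the ITD lines and the vector line 2838 genes were called (14.0% of those tested), 1785 higher (8.82%) and 1053 lower (5.21%) in the ITD lines. Large changes leaned the other way, since 233 of the 332 called genes that differed at least 2-fold were lower. The ITD and vector arrays did not overlap for 4393 genes (21.7% of those tested), 2630 of them called. The call count rests on both vector arrays, and "without either vector array" means here with each of them left out in turn. It was 791 without the first and 706 without the second, of which 55.8% and 52.0% were higher against 62.9% with both. Leaving out 1 of the parental or ITD arrays gave between 2521 and 3720 calls, the highest without ITD line 7.

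The parental arrays split the called genes into 3 classes. The first held 1549 genes (7.66% of those tested) that were also called in the same direction against parental cells, 1038 higher and 511 lower. They are named here genes apart from both controls, and 178 of them differed at least 2-fold from the vector line. The second held 165 genes (0.816%) whose ITD lines were not called in that direction against parental cells while the vector line itself was called apart from them, 42 higher and 123 lower in ITD than vector. They are named here genes set apart by the vector line. Their median difference was 0.864 against 0.562 (absolute log2) in the first class. Their rule also needs a call between 2 vector and 2 parental arrays, which favours large differences, so the 2 medians are not comparable. The remaining 1124 genes met neither rule, and 974 of them had the same sign against parental cells without being called. The comparisons share arrays, so their counts are not independent. Over all genes, 3439 genes (17%) were called between ITD and parental cells, 2080 higher (10.3%) and 1359 lower (6.72%), and 451 (2.23%) between vector and parental cells, 257 higher (1.27%) and 194 lower (0.959%).

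Class sizes depended on single control arrays. Without the first or second vector array 537 and 488 genes were apart from both controls and 41 and 55 were set apart by the vector line. Leaving out a parental array gave 989 and 832 of the first class and 78 and 65 of the second. Without ITD line 7 the second class held 311 genes. By array ranges in place of tests, 1317 called genes had both vector arrays beyond all ITD and parental arrays on the same side, and 1580 had all ITD arrays beyond both controls. The plot of called genes by list gives the split for each gene list.

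**Figure D1:**
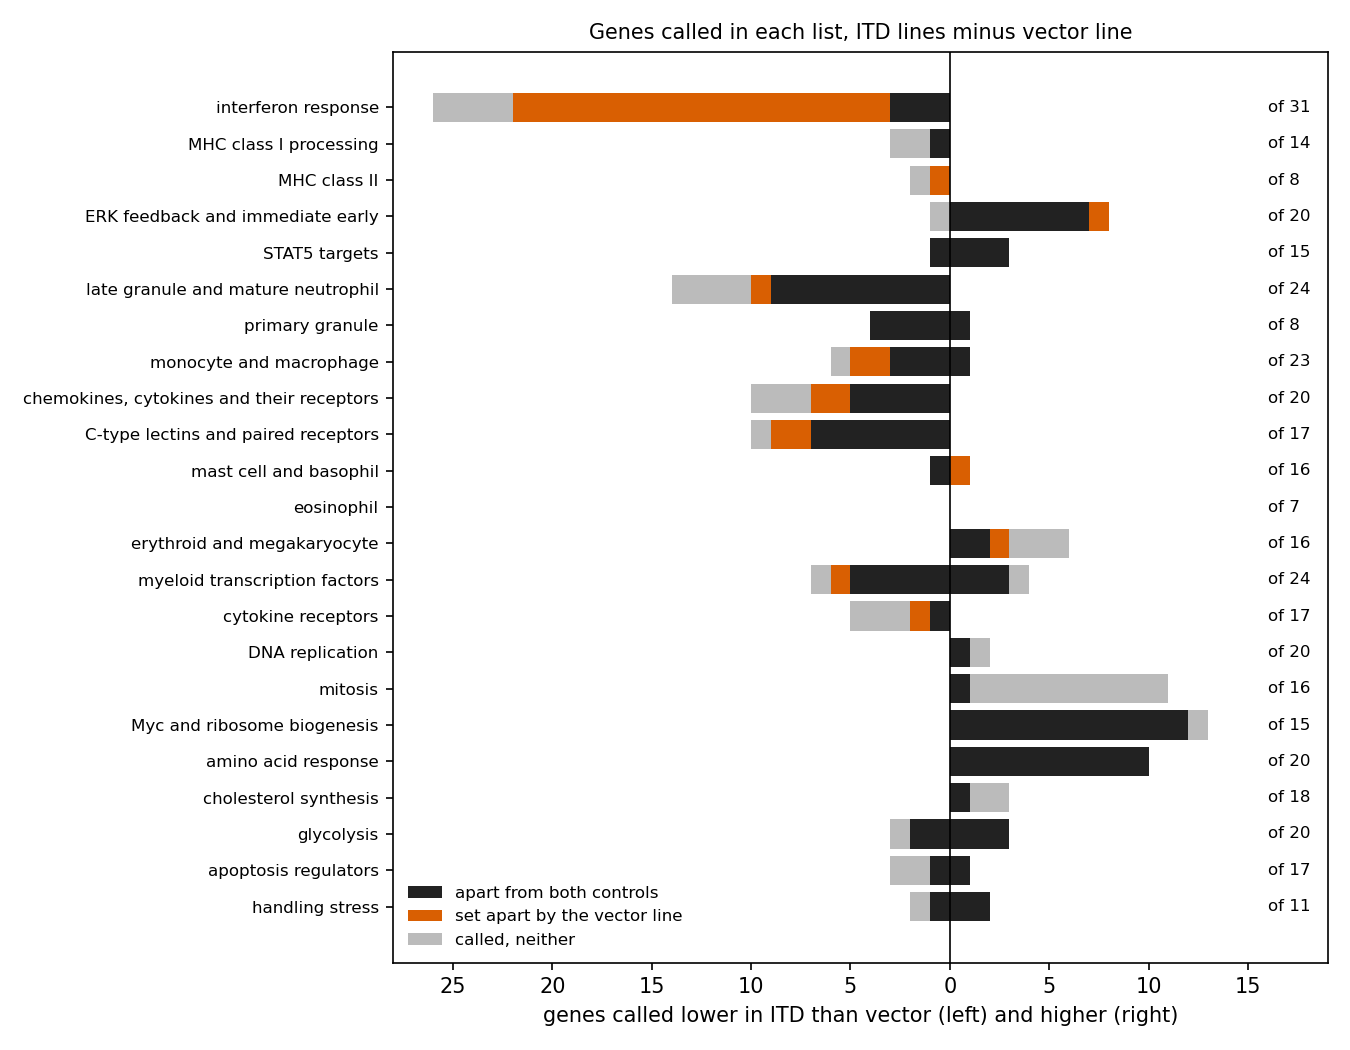
Number of genes called between ITD and vector arrays in each of 23 gene lists, lower in ITD to the left of 0 and higher to the right, coloured by class, with the number of genes measured at the right. Of 31 interferon response genes 26 were lower and 19 of those were set apart by the vector line, while all 10 amino acid response genes that were called were higher and apart from both controls.

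Genes of the ERK pathway were among the largest rises. Of 20 measured genes of ERK feedback and the immediate early response 8 rose and 1 fell, against 8.82% and 5.21% of all genes, and the list median was 0.13 against -0.007 over all genes. That median was -0.004 without the first vector array and 0.246 without the second. Egr1, an immediate early transcription factor, was at 6.19 and 6.20 on the vector arrays and ran from 7.35 to 8.11 (median 7.90) over the ITD lines. Every ITD line lay above both vector and both parental arrays, and Egr1 rose by 1.63 ± 0.15 (adjusted p 6.55e-06). Its relative Egr2 was at 5.60 and 5.37 with the vector and ran from 6.33 to 7.63 (median 7.28) with ITD, a rise of 1.68 ± 0.25 (adjusted p 0.000331). Dusp4, a phosphatase that inactivates MAP kinases in the nucleus, stood at 7.13 and 7.23 on the vector arrays and 7.73 and 7.49 on the parental arrays. On the ITD arrays it ran from 8.43 to 9.71 (median 9.0), again with no overlap, and rose by 1.85 ± 0.26 (adjusted p 0.000193).

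Dusp6, a phosphatase that acts on ERK in the cytoplasm, was at 8.81 and 8.90 with the vector and ran from 9.72 to 10.41 (median 10.16) with ITD, a rise of 1.30 ± 0.15 (adjusted p 4.53e-05). Etv5, an ETS factor whose gene responds to ERK, was at 5.88 and 6.03 with the vector and ran from 7.18 to 7.75 (median 7.31) with ITD, a rise of 1.45 ± 0.14 (adjusted p 1.14e-05). Spred1 and Spred2, membrane inhibitors of RAS signalling, rose by 1.08 ± 0.10 (adjusted p 8.23e-06) and 0.89 ± 0.12 (adjusted p 0.000187). All 7 genes, from Egr1 to Spred2, were called against parental cells too. On the wild-type FLT3 arrays Dusp6 (10.29 and 10.28), Etv5 (7.56 and 7.39) and Spred2 (8.13 and 8.04) were within the range of the ITD lines, while Egr1 (6.38 and 6.71) was below it. The ITD lines exceeded wild-type FLT3 in Egr1 by 1.28 ± 0.15 (adjusted p 0.000103) and differed from it in Etv5 by -0.079 ± 0.14 (adjusted p 0.814), which was not called.

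Spry2, another ERK antagonist, was the one member set apart by the vector line. It was at 7.47 and 7.47 on the vector arrays, 8.24 and 7.92 on the parental arrays and 7.92 to 8.39 on the ITD arrays. The ITD lines were above the vector line by 0.73 ± 0.11 (adjusted p 0.000412) and differed from parental cells by 0.12 ± 0.11 (adjusted p 0.54), and the vector line differed from parental cells by -0.61 ± 0.14 (adjusted p 0.0332). No gene of the list met that class when any 1 vector or parental array was left out, with 13 arrays, or with the median of probe sets. Dusp5, an ERK phosphatase of the nucleus, fell by 0.79 ± 0.19 (adjusted p 0.0112) and was not called without either vector array (adjusted p 0.0989 and 0.143). Of the other 11 genes, Fos was the most uneven, at 6.54 and 6.85 with the vector and 5.84 to 8.28 over the ITD lines. Fos was highest in lines 4 and 7. These lines were highest in the mean of 11 genes that respond to handling stress, a list that includes Fos itself and Egr1. That mean ran from 7.42 to 8.39 over the ITD lines against 7.68 and 7.75 with the vector. The part of handling in the rise of the immediate early genes was not tested. Without either vector array 8 genes of the list rose.

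The largest rises outside this list included a receptor, an adaptor and a Myc gene. F2rl2, a protease-activated receptor of the thrombin family, was at 7.68 and 7.83 on the vector arrays and ran from 8.63 to 10.64 (median 9.93) on the ITD arrays. It rose by 2.12 ± 0.32 (adjusted p 0.000331), or 4.36-fold, and stood at 9.95 and 9.97 in the wild-type FLT3 line. Sla2, an adaptor that dampens receptor signalling, was at 8.27 and 8.19 with the vector and ran from 9.35 to 11.04 (median 10.16) with ITD, with no overlap and a rise of 1.93 ± 0.28 (adjusted p 0.000257). Mycn, a relative of Myc, was at 6.58 and 6.57 with the vector and ran from 7.29 to 8.79 (median 8.43) with ITD, and it rose by 1.68 ± 0.27 (adjusted p 0.00055). Its lowest value was that of line 7, which lay near the wild-type arrays at 7.35 and 7.49.

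Hemgn, a nuclear protein of blood precursors, was higher by 1.37 ± 0.17 (adjusted p 7.46e-05), Fbxo48, an F-box protein, by 1.56 ± 0.25 (adjusted p 0.000648) and Eda2r, a receptor of the tumour necrosis factor receptor family, by 1.46 ± 0.30 (adjusted p 0.00373). Eda2r was not called without the first vector array (adjusted p 0.0824). Ptgs2, the inducible cyclooxygenase, was at 4.76 and 5.06 with the vector and spread widely over the ITD lines, from 5.51 to 7.53 (median 6.37). Its rise of 1.58 ± 0.44 (adjusted p 0.0227) was not called without either vector array (adjusted p 0.211 and 0.134) or with only the brighter probe sets (difference 0.074, adjusted p 0.866). All 11 used probe sets of Sla2 and all 9 of Dusp4 separated the ITD from the vector arrays.

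**Figure D2:**
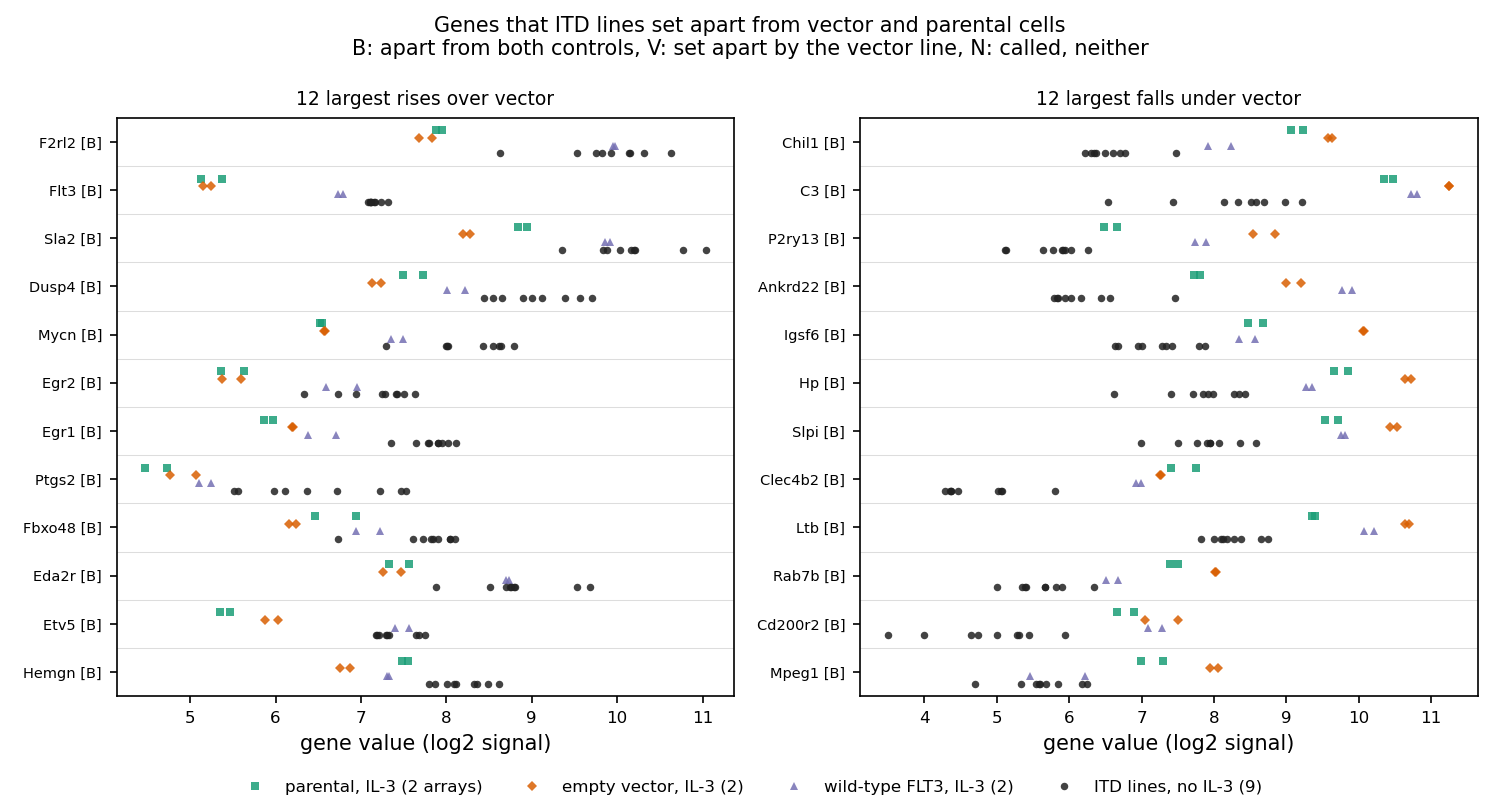
Log2 gene value on every array for the 12 largest rises and 12 largest falls, ITD against vector, among genes apart from both controls, with 1 point per array and 1 colour per group. Every ITD array of F2rl2 lies above 8.6 and every vector array below 7.9, and Chil1 lies at 7.47 or lower on the ITD arrays against at least 9.58 on the vector arrays.

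Among 15 measured STAT5 targets 3 rose and 1 fell, against 8.82% and 5.21% of all genes, all 4 apart from both controls, and the list median was 0.07. The feedback inhibitors Socs2 and Cish differed by -0.024 ± 0.13 (adjusted p 0.931) and 0.32 ± 0.25 (adjusted p 0.431), and the kinase gene Pim1 by 0.018 ± 0.10 (adjusted p 0.931), none of them called. The vector line and the parental cells both grew with IL-3, whose receptor also uses STAT5, and its part in these levels was not tested. Against parental cells 8 of the 15 genes were higher in the ITD lines and 1 was lower, against 10.3% and 6.72% of all genes. The list median was 0.458 there, and 0.303 between the vector line and parental cells. Bcl6, a transcriptional repressor that STAT5 lowers, was at 8.39 and 8.43 on the vector arrays and ran from 6.24 to 7.66 (median 6.63) on the ITD arrays. It fell by 1.63 ± 0.29 (adjusted p 0.00129) with no overlap between the groups.

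The survival gene Bcl2l1, which encodes BCL-XL, rose by 0.61 ± 0.13 (adjusted p 0.00633), the cytokine gene Osm by 0.75 ± 0.19 (adjusted p 0.0144) and Id1, an inhibitor of differentiation factors, by 0.56 ± 0.14 (adjusted p 0.0135). None of the 3 was called in all settings: without the second vector array their adjusted p were 0.172, 0.236 and 0.0995, and without it no gene of the list rose. The IL-2 receptor chain Il2ra showed the widest spread of the list, at 8.94 and 8.92 with the vector and 4.53 and 5.06 in parental cells. Over the ITD lines it ran from 5.32 to 10.76 (median 7.30), and it was not called (adjusted p 0.376). In RefSeq promoter windows (GRCm38.p6, 250 bases before to 50 after each start), the STAT site TTCNNNGAA occurred in 4 of the 15 windows of 10 of the list's genes (26.7%) against 8.3% of all windows.

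Genes of maturing neutrophils fell in the ITD lines. In the list of late granule and mature neutrophil genes 14 of 24 fell and none rose, against 5.21% lower among all genes, and the list median was -1.26. Of the 14, 9 were apart from both controls and 1 was set apart by the vector line. Averaged over the 24 genes, the vector arrays stood at 8.66 and 8.69, the parental arrays at 8.36 and 8.47 and the ITD arrays between 6.99 and 7.88. The wild-type FLT3 arrays stood at 8.45 and 8.48. The 9 ITD lines were thus below all 6 of these arrays, line 4 lowest and line 6 highest. In a bulk culture fewer cells of a type and less RNA per cell cannot be told apart.

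Ly6g, a surface marker of mouse neutrophils, was at 8.16 and 7.98 on the vector arrays, 7.90 and 8.23 on the parental arrays and ran from 3.72 to 5.81 (median 4.66) on the ITD arrays. The groups did not overlap, and Ly6g fell by 3.42 ± 0.36 (adjusted p 1.59e-05) on 2 probe sets. Its ITD values reach the dim end of the arrays, so no fold is given. Chil1, a secreted chitinase-like protein of neutrophil granules, was at 9.63 and 9.58 with the vector and ran from 6.22 to 7.47 (median 6.49) with ITD. It fell by 3.02 ± 0.22 (adjusted p 5.73e-07), or 8.09-fold, the largest fall among the named genes apart from both controls with 3 or more probe sets. S100a9, a subunit of the neutrophil protein calprotectin, was at 12.36 and 12.31 with the vector and ran from 9.04 to 10.93 (median 10.31) with ITD, and it fell by 2.14 ± 0.35 (adjusted p 0.000764). Its partner S100a8 fell by 1.64 ± 0.40 (adjusted p 0.0113), a call lost without either vector array (adjusted p 0.111 and 0.127).

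Hp, the haemoglobin scavenger haptoglobin, was at 10.72 and 10.64 with the vector and ran from 6.62 to 8.43 (median 7.92) with ITD, and it fell by 2.84 ± 0.31 (adjusted p 2.27e-05). Slpi, an inhibitor of neutrophil elastase, was at 10.52 and 10.43 with the vector and ran from 6.99 to 8.58 (median 7.95) with ITD, and it fell by 2.58 ± 0.26 (adjusted p 1.26e-05). C3, the central complement protein, is outside the list and showed the same order. It was at 11.25 and 11.25 with the vector and ran from 6.54 to 9.22 (median 8.51) with ITD, and it fell by 2.98 ± 0.45 (adjusted p 0.000397). All 3 were separated without overlap and were also called below parental cells, with differences of -1.92 ± 0.31 (adjusted p 0.00039) for Hp, -1.73 ± 0.26 (adjusted p 0.000201) for Slpi and -2.14 ± 0.45 (adjusted p 0.00312) for C3. The integrin gene Itgam, the alpha chain of Mac-1, fell by 1.25 ± 0.23 (adjusted p 0.00167).

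Other genes of that list did not pass the test. Ltf, which encodes lactoferrin, was at 9.82 and 9.88 with the vector and ran from 6.69 to 9.51 (median 8.60) with ITD, and its difference was -1.40 ± 0.47 (adjusted p 0.0604). Camp and Ngp, granule peptides, differed by -0.61 ± 0.24 (adjusted p 0.102) and -0.27 ± 0.33 (adjusted p 0.637), and Cxcr2, a chemokine receptor, by 0.095 ± 0.39 (adjusted p 0.904). Camp and Cxcr2 were highest in parental cells, at means of 8.45 and 8.13 against 7.19 and 6.54 in the vector line. Mmp9, a matrix protease, was the member set apart by the vector line, at 7.60 and 7.46 with the vector, 6.52 and 6.36 in parental cells and 5.88 to 6.36 with ITD. Without either vector array 9 of the list's genes fell, and 4 and 5 were apart from both controls without the first and second parental array.

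**Figure D3:**
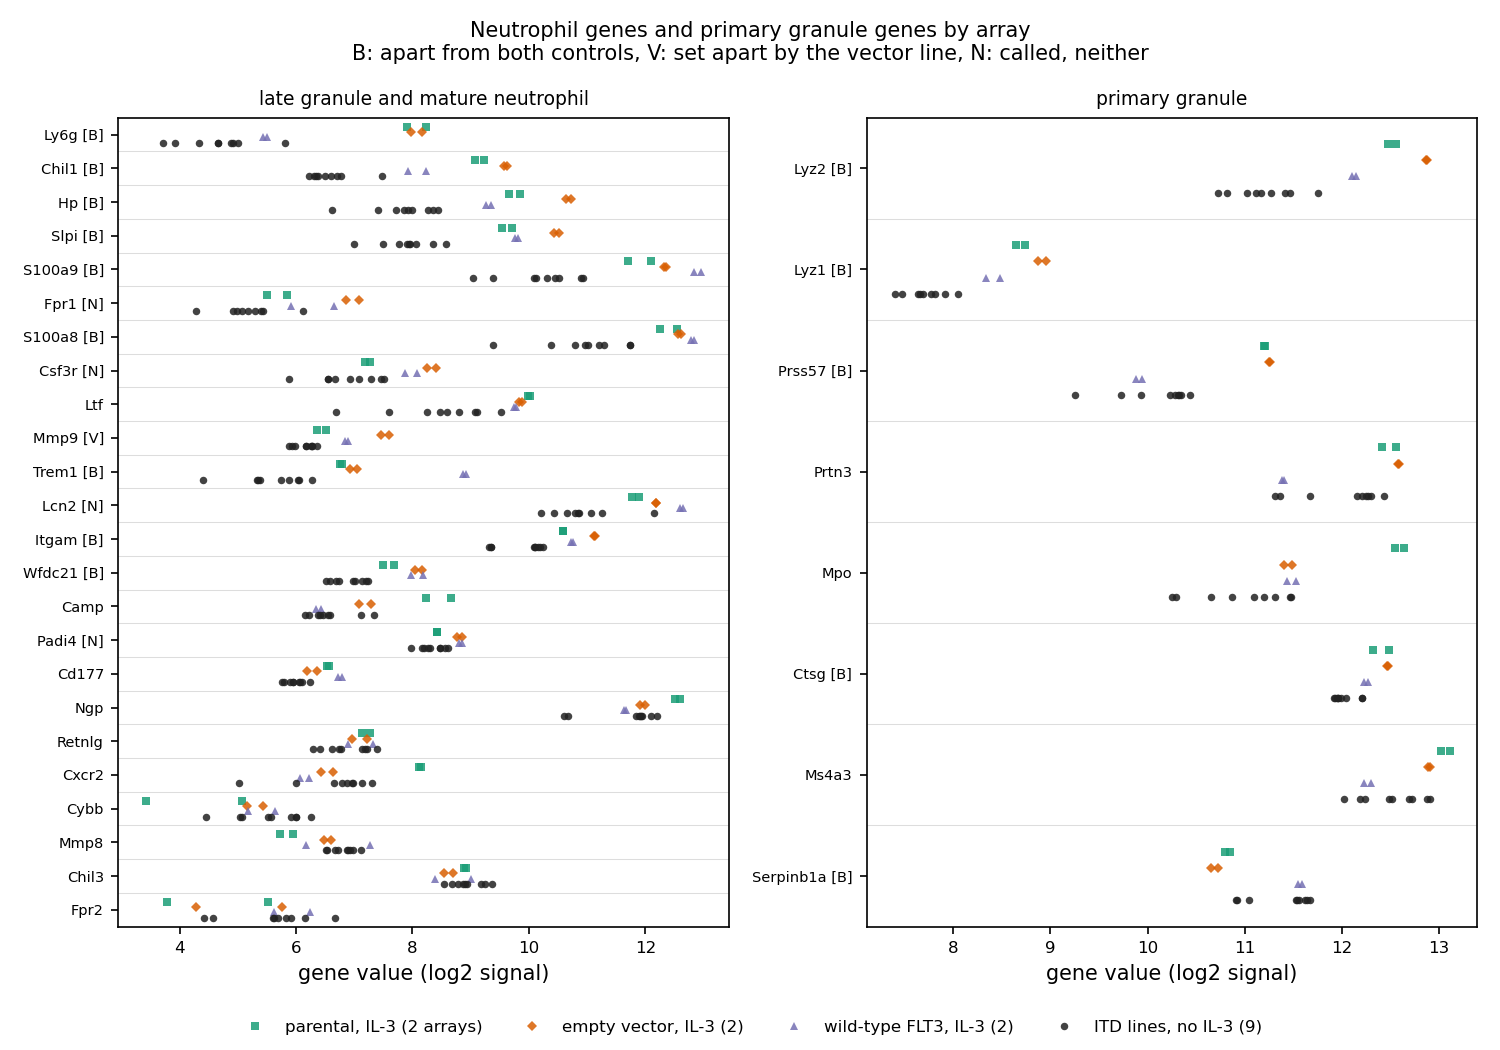
Log2 gene value on every array for 24 late granule and mature neutrophil genes, ordered by their difference, and for 8 primary granule genes, with 1 point per array. The 9 ITD points of Ly6g, Chil1, Hp and Slpi lie below all vector and parental points, whereas those of Mmp8, Chil3 and Fpr2 overlap them.

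Among the primary granule genes of the earlier promyelocyte stage, 4 of 8 fell and 1 rose, against 5.21% and 8.82% of all genes. All of these were apart from both controls (7.66% of all genes). Averaged over the 8 genes, the vector arrays stood at 11.66 and 11.63, the parental arrays at 11.76 and 11.69 and the ITD arrays between 10.51 and 11.30. The wild-type FLT3 arrays, at 11.18 and 11.17, lay within the range of the ITD lines. Lyz2, the main lysozyme of myeloid cells, was at 12.87 and 12.88 on the vector arrays and ran from 10.72 to 11.75 (median 11.16) on the ITD arrays, without overlap. It fell by 1.68 ± 0.18 (adjusted p 2.24e-05), and Lyz1, a close copy whose probes may share signal with it, fell by 1.21 ± 0.13 (adjusted p 2.16e-05). The serine protease gene Prss57 fell by 1.16 ± 0.22 (adjusted p 0.00211) and its relative Ctsg, which encodes cathepsin G, fell by 0.45 ± 0.079 (adjusted p 0.00112). Serpinb1a, an inhibitor of such proteases, rose by 0.70 ± 0.18 (adjusted p 0.0172), a call lost without either vector array (adjusted p 0.124 and 0.181). The myeloperoxidase gene Mpo was at 11.48 and 11.40 with the vector, 12.64 and 12.55 in parental cells and 10.25 to 11.48 with ITD, so that it was called below parental cells (difference -1.64 ± 0.26) but not below the vector line (adjusted p 0.241).

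Of 24 myeloid transcription factor genes 7 fell and 4 rose, against 5.21% and 8.82% of all genes. Those that rose were Egr1, Egr2, Id1 and Meis1, a homeobox factor of early progenitors, which rose by 0.84 ± 0.26 (adjusted p 0.0397) and was not called without either vector array (adjusted p 0.265 and 0.19). Spi1, which encodes PU.1, was at 10.26 and 10.27 with the vector and ran from 8.85 to 9.29 (median 9.18) with ITD, below both control lines, and fell by 1.11 ± 0.11 (adjusted p 6.9e-06). Cebpd, a C/EBP factor of granulocytes, was at 8.69 and 8.56 with the vector and ran from 6.39 to 7.55 (median 6.95) with ITD, and it fell by 1.60 ± 0.21 (adjusted p 0.00011). Id2, a relative of Id1, fell by 1.83 ± 0.23 (adjusted p 6.85e-05). Cebpa, the C/EBP factor that starts the granulocyte programme, fell by 0.64 ± 0.13 (adjusted p 0.00283), which was not called without either vector array (adjusted p 0.0502 and 0.066). Gfi1, a repressor needed for neutrophils, was set apart by the vector line: it was at 9.46 and 9.57 with the vector, 8.31 and 8.32 in parental cells and 7.32 to 8.43 with ITD. Without either vector array 4 genes of this list fell and 2 rose.

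Monocyte genes changed less evenly. Of 23 measured monocyte and macrophage genes 6 fell and 1 rose, and the list median was -0.14. Mpeg1, the pore protein of macrophages, was at 7.95 and 8.06 with the vector and ran from 4.71 to 6.25 (median 5.59) with ITD, and it fell by 2.37 ± 0.28 (adjusted p 5.04e-05) against the vector line and differed by -1.51 ± 0.28 (adjusted p 0.00126) from parental cells. Csf1r, the receptor of the monocyte growth factor M-CSF, was at 6.70 and 6.78 with the vector and 5.64 to 5.99 with ITD, and it fell by 0.89 ± 0.095 (adjusted p 1.67e-05). Adgre1, a surface marker of macrophages, fell by 1.67 ± 0.35 (adjusted p 0.00412) but was not called without either vector array (adjusted p 0.0715 and 0.0669). Ctss and Cd14 belonged to the genes set apart by the vector line and are given with that class.

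Surface receptors and secreted signals of myeloid cells fell in larger numbers. Of 17 C-type lectins and paired receptors 10 fell and none rose, against 5.21% and 8.82% of all genes. Of the 10, 7 were apart from both controls, a class that held 7.66% of all genes. Clec4b2, a lectin outside that list, was at 7.25 and 7.26 with the vector and ran from 4.29 to 5.81 (median 4.46) with ITD, where the lower values are near background. It fell by 2.50 ± 0.30 (adjusted p 4.7e-05). Cd200r3, an activating receptor of basophils and mast cells, was at 7.20 and 7.21 with the vector, 8.31 and 8.04 in parental cells and from 3.89 to 6.53 (median 4.56) with ITD, and its difference of -2.33 ± 0.48 (adjusted p 0.0038) was lost without either vector array (adjusted p 0.0636 and 0.0685). Without the first and second vector array 4 and 5 genes of this list fell.

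Of 20 chemokines, cytokines and their receptors 10 fell and none rose, against 5.21% and 8.82% of all genes. Ccl4, a chemokine that attracts leukocytes, was at 8.42 and 8.42 with the vector, 7.22 and 7.26 in parental cells and ran from 5.61 to 7.07 (median 6.0) with ITD. It fell by 2.37 ± 0.26 (adjusted p 2.16e-05) against the vector line and fell by 1.18 ± 0.26 (adjusted p 0.00375) against parental cells. The myeloid chemokine Ccl6 fell by 2.32 ± 0.40 (adjusted p 0.00114), and Ccl3, a partner of Ccl4, fell by 2.85 ± 0.50 (adjusted p 0.00132), though Ccl3 was not called below parental cells (adjusted p 0.129). Tnf was set apart by the vector line, at 8.12 and 8.19 with the vector, 6.79 and 6.52 in parental cells and 6.63 to 7.97 with ITD, and its call was lost without either vector array (adjusted p 0.121 and 0.157). Of this list 2 genes met the vector class, and none did when any 1 vector or parental array was left out. Without the first and second vector array 5 and 6 genes of this list fell.

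Among the 12 largest falls apart from both controls were further surface and signalling genes. P2ry13, a receptor for ADP, was at 8.53 and 8.85 with the vector, 6.66 and 6.49 in parental cells and ran from 5.11 to 6.26 (median 5.90) with ITD. It fell by 2.94 ± 0.23 (adjusted p 9.96e-07) against the vector line and fell by 0.83 ± 0.23 (adjusted p 0.0189) against parental cells, and the vector line exceeded parental cells by 2.11 ± 0.29 (adjusted p 0.000747). Ltb, the membrane-bound lymphotoxin, showed the same order, at 10.64 and 10.70 with the vector, 9.39 and 9.35 in parental cells and from 7.82 to 8.74 (median 8.17) with ITD, and it fell by 2.42 ± 0.18 (adjusted p 5.73e-07) against the vector line. Igsf6, an immunoglobulin-like receptor of myeloid cells, fell by 2.85 ± 0.26 (adjusted p 4.35e-06) against the vector line and fell by 1.35 ± 0.26 (adjusted p 0.00133) against parental cells. For such genes the vector line widened a difference that was also present against parental cells. Of the 1549 genes apart from both controls, 55 had a called difference between vector and parental cells, counted in either direction. In some of them, such as Psat1, the vector line instead lay between parental cells and the ITD lines. Ankrd22, an ankyrin repeat protein, fell by 2.87 ± 0.30 (adjusted p 1.58e-05), Rab7b, a small GTPase of endosomes, fell by 2.41 ± 0.23 (adjusted p 6.09e-06) and the paired receptor Cd200r2 fell by 2.40 ± 0.43 (adjusted p 0.0014), the last not called without the first vector array (adjusted p 0.0519).

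Genes of growth rose by smaller amounts. Of 15 measured genes of Myc and ribosome biogenesis 13 rose and none fell, against 8.82% and 5.21% of all genes. Of the 13, 12 were apart from both controls (7.66% of all genes), and the list median was 0.54. Averaged over the 15 genes, the vector arrays stood at 9.87 and 9.85, the parental arrays at 9.53 and 9.51 and the ITD arrays between 10.27 and 10.58. The wild-type FLT3 arrays, at 10.35 and 10.28, lay within the range of the ITD lines. Dkc1, the pseudouridine synthase of small nucleolar particles, was at 9.84 and 9.83 with the vector and ran from 10.30 to 10.98 (median 10.85) with ITD, a rise of 0.91 ± 0.13 (adjusted p 0.000193). Nop58, a core protein of the same kind of particle, rose by 0.87 ± 0.15 (adjusted p 0.00126) and Rrp9, a processing factor of ribosomal RNA, by 0.89 ± 0.16 (adjusted p 0.0012). Myc itself was at 11.91 and 11.83 with the vector and ran from 12.03 to 12.52 (median 12.34) with ITD, and its rise of 0.43 ± 0.11 (adjusted p 0.0138) was lost without either vector array (adjusted p 0.0976 and 0.18). Without either vector array 6 genes of the list rose.

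The amino acid response, in which the factor ATF4 raises genes of amino acid synthesis and import, showed 10 rises among 20 measured genes and no fall. Over all genes 8.82% rose and 5.21% fell. All 10 rises were apart from both controls, against 7.66% of all genes. Averaged over the 20 genes, the wild-type FLT3 arrays stood at 9.88 and 9.86, the ITD arrays between 9.55 and 9.94 and the vector arrays at 9.34 and 9.36, so the wild-type arrays lay above 7 of the 9 ITD lines. Psat1, an enzyme of serine synthesis, was at 10.26 and 10.27 on the vector arrays and 9.54 and 9.67 on the parental arrays, and ran from 10.81 to 11.05 (median 10.96) on the ITD arrays. No ITD array overlapped either control, and Psat1 rose by 0.69 ± 0.071 (adjusted p 1.45e-05) against the vector line and by 1.35 ± 0.071 (adjusted p 7.83e-09) against parental cells. The one-carbon enzymes Shmt2 and Mthfd2 rose by 0.81 ± 0.11 (adjusted p 0.000193) and 0.72 ± 0.12 (adjusted p 0.000883), and Pycr1, an enzyme of proline synthesis, by 0.77 ± 0.15 (adjusted p 0.00308). The vector line itself was called above parental cells for Psat1, by 0.66 ± 0.091 (adjusted p 0.000649), and for Pycr1, by 1.04 ± 0.20 (adjusted p 0.00844). Atf4 differed by 0.16 ± 0.075 (adjusted p 0.168) from the vector line and the stress gene Ddit3 by 0.048 ± 0.37 (adjusted p 0.951), neither called. Without the first and second vector array 7 and 6 genes of this list rose, and Pycr1 was not called without the first (adjusted p 0.0733).

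**Figure D4:**
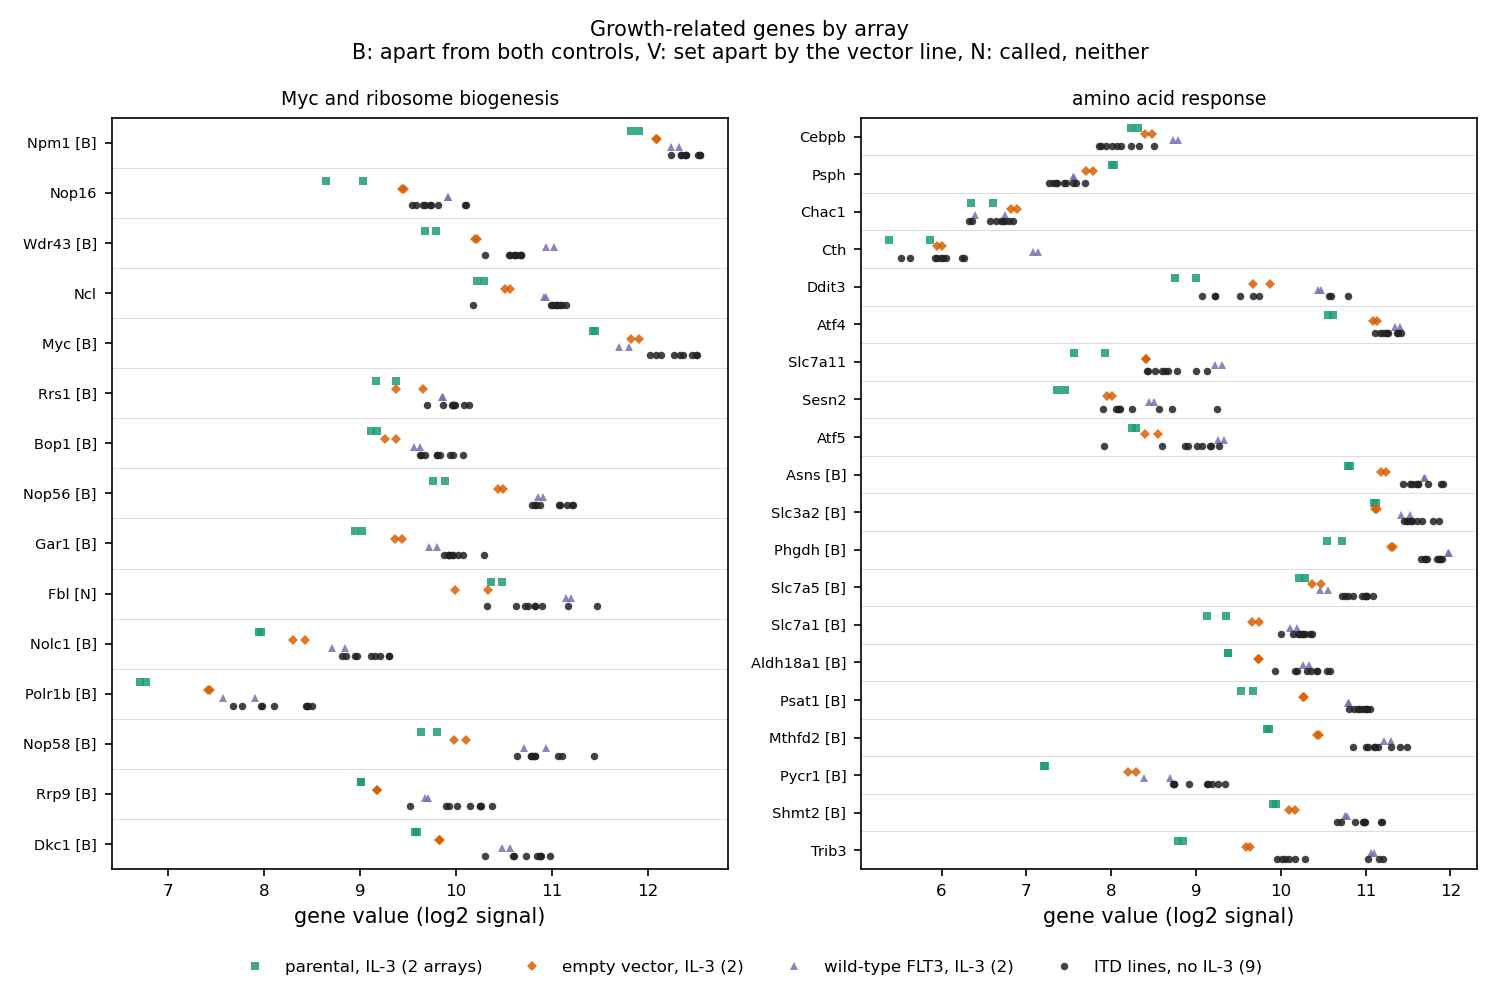
Log2 gene value on every array for 15 Myc and ribosome biogenesis genes and 20 amino acid response genes, ordered by their difference, with 1 point per array. For Psat1, Shmt2, Dkc1 and Nop58 the ITD points lie right of all vector and parental points, with the vector points between the parental and the ITD points.

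Genes of mitosis rose against the vector line, and 1 of them was apart from both controls. Of 16 measured mitosis genes 11 rose and none fell, against 8.82% and 5.21% of all genes. The one apart from both controls was Cdk1, the kinase that starts mitosis, at a rise of 0.67 ± 0.11 (adjusted p 0.000594). No mitosis gene met that class without either vector array, without either parental array, without ITD line 1, 2, 3, 5 or 6, or under 4 other settings. The other 10 met neither class. Ttk, a kinase of the spindle checkpoint, was at 8.25 and 8.22 with the vector, 9.15 and 9.0 in parental cells and ran from 8.26 to 9.49 (median 9.35) with ITD, where line 7 lay at the level of the vector line. It rose by 0.95 ± 0.22 (adjusted p 0.00853) against the vector line and differed from parental cells by 0.11 ± 0.22 (adjusted p 0.818). The motor gene Cenpe rose by 0.88 ± 0.22 (adjusted p 0.0122), the checkpoint kinase gene Bub1 by 0.76 ± 0.18 (adjusted p 0.00937) and the motor gene Kif11 by 0.69 ± 0.18 (adjusted p 0.0142), and without either vector array only 2 genes of the list were called. Of 20 DNA replication genes 2 rose, near the 8.82% of all genes, Cdc45 by 0.53 ± 0.12 (adjusted p 0.00614) and Rrm1 by 0.51 ± 0.11 (adjusted p 0.00649), 8 without ITD line 7 and none without either vector array.

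The genes set apart by the vector line were led by the interferon response. Of 31 measured interferon response genes 26 were lower in the ITD lines than in the vector line and none was higher, against 5.21% lower among all genes, and the list median was -1.20. Of the 26, 19 were set apart by the vector line, 3 were apart from both controls and 4 met neither rule, whereas 0.816% of all genes were set apart by the vector line. Against parental cells the median over the 31 genes was 0.08, with 2 genes higher and 3 lower, and the vector line was called above parental cells for 21 of them (1.27% of all genes). Averaged over the 31 genes, the vector arrays stood at 8.57 and 8.52 and the parental arrays at 7.09 and 6.97. The ITD arrays ran from 6.85 to 7.40 with a median of 7.15, and the wild-type arrays stood at 7.23 and 7.18. The 2 vector arrays thus lay above all other arrays of these 4 groups. Without the first and second vector array 21 and 22 genes were lower, and 15 met the vector class each time. Without the first and second parental array 26 were lower and 17 and 16 met it. The 3 genes apart from both controls became 1 without either vector array and 0 and 1 without the first and second parental array.

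Rtp4, an interferon-induced receptor transporter protein, was at 9.90 and 9.71 on the vector arrays and 5.45 and 5.02 on the parental arrays. It ran from 4.98 to 7.18 (median 5.80) over the ITD arrays, which overlapped the parental and the wild-type arrays and not the vector arrays. Rtp4 was lower by 3.80 ± 0.40 (adjusted p 1.45e-05), or 13.9-fold, while the ITD lines differed from parental cells by 0.77 ± 0.40 (adjusted p 0.224). Usp18, the protease that removes ISG15, was at 9.50 and 9.38 with the vector, 6.74 and 6.77 in parental cells and ran from 5.98 to 8.27 (median 6.43) with ITD, and it was lower by 2.76 ± 0.40 (adjusted p 0.000257). Its highest ITD value was that of line 5, which also held the highest value of Rtp4.

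The Oas genes, which sense double-stranded RNA, followed the same order. Oasl2 was at 8.57 and 8.56 with the vector, 5.58 and 5.66 in parental cells and 5.65 to 6.43 with ITD, and it was lower by 2.60 ± 0.15 (adjusted p 6.7e-08). Oas2 was at 9.06 and 8.96 with the vector, 6.09 and 5.79 in parental cells and 6.13 to 7.0 with ITD, and it was lower by 2.47 ± 0.20 (adjusted p 1.41e-06) and here still above parental cells by 0.61 ± 0.20 (adjusted p 0.0454). Oas3 was lower by 2.11 ± 0.15 (adjusted p 4.73e-07) and Oas1a was lower by 1.20 ± 0.11 (adjusted p 6.96e-06). These genes are close relatives, and signal shared between their probes was not tested. Nearly all their probe sets moved together, with 18 of 18 used probe sets of Oas2 and 13 of 14 of Oas3 separating the ITD from the vector arrays.

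The factors that drive these genes were part of the pattern. Irf7, which amplifies the response, was at 9.36 and 9.42 with the vector, 6.99 and 6.73 in parental cells and ran from 6.57 to 7.76 (median 7.07) with ITD, and it was lower by 2.30 ± 0.24 (adjusted p 1.48e-05). Irf9, the DNA-binding partner of STAT2, was at 9.0 and 9.06 with the vector, 7.39 and 7.39 in parental cells and 7.07 to 7.75 with ITD, and it was lower by 1.53 ± 0.13 (adjusted p 2.87e-06). Stat2 was apart from both controls, with differences of -0.79 ± 0.11 (adjusted p 0.000245) from the vector line and -0.35 ± 0.11 (adjusted p 0.0432) from parental cells. The receptor genes Ifnar1 and Ifngr1 differed by -0.17 ± 0.12 (adjusted p 0.361) and -0.028 ± 0.10 (adjusted p 0.892) and were not called. Bst2, a tether of budding virus, and Cmpk2, a mitochondrial nucleotide kinase, were the other members apart from both controls. Isg15, Ifit3, Rigi and Ifi27l2a had no gene value here.

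Not every member moved. Ifit2 was at 7.59 and 7.38 with the vector and 6.72 to 7.56 with ITD, while Oasl1 was at 6.26 and 6.42 with the vector and 5.86 to 6.32 with ITD. Neither was called (adjusted p 0.519 and 0.203). Eif2ak2, a kinase that senses double-stranded RNA, differed by -0.39 ± 0.18 (adjusted p 0.178), Mx2, a dynamin-like antiviral protein, by -1.07 ± 0.38 (adjusted p 0.0681) and Gbp2, a guanylate-binding protein, by -0.69 ± 0.24 (adjusted p 0.0651). Ifit1, whose protein binds viral RNA, was the most uneven of the called members, at 7.06 and 7.34 with the vector and from 4.16 to 6.73 (median 5.26) with ITD. Of 14 genes of MHC class I antigen processing, which interferon also raises, 3 fell. Tapbp, the peptide-loading factor tapasin, fell by 0.91 ± 0.16 (adjusted p 0.00114), B2m, the shared light chain, fell by 0.55 ± 0.13 (adjusted p 0.00918) and the immunoproteasome gene Psmb8 fell by 0.43 ± 0.11 (adjusted p 0.0157). Only Tapbp was called without either vector array.

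**Figure D5:**
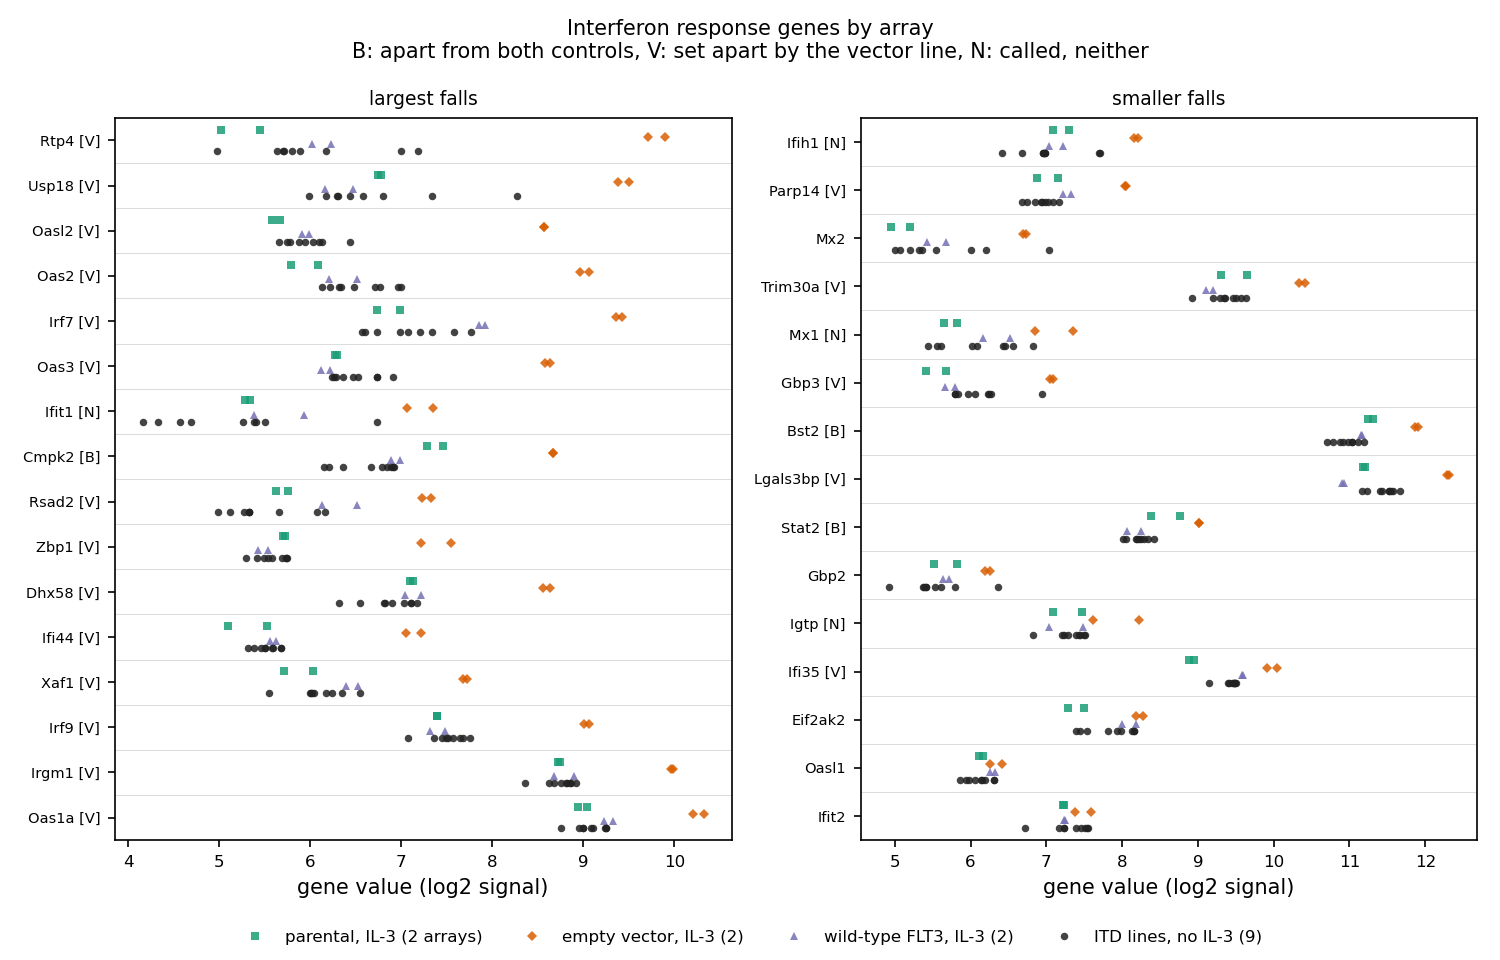
Log2 gene value on every array for 31 interferon response genes, ordered by their difference, with 1 point per array and the class of each gene in brackets. The vector points stand to the right of the ITD, parental and wild-type points for Rtp4, Oasl2, Oas2, Irf7, Oas3, Irf9 and Irgm1, while those of Ifit2 and Oasl1 overlap them.

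Promoters of the genes in this class were examined because their members moved together. The core of the element bound by IRF9 with STAT2 was searched as GAAANNGAA, on both strands, in RefSeq windows of 300 bases from 250 before to 50 after each start site (GRCm38.p6). It occurred in 2812 of 32851 windows of all genes (8.56%). Of the 31 measured interferon response genes 23 had a window, and 15 of their 27 windows (55.6%) held the core. Of the 19 genes set apart by the vector line 13 had a window, and 8 of their 16 windows (50%) held it. The core and the STAT site TTCNNNGAA occurred together in 351 of all windows and overlapped in 54. A match of this kind is a description and shows no binding.

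Stretches of 5 promoters of interferon genes set apart by the vector line are shown 5′ to 3′ on the gene's strand, each with its core in capitals. In Rsad2 and Trim30a the core is on the other strand and reads as its reverse complement. In Oas3, Irgm1 and Oas1a 2 cores overlap.
Oas3: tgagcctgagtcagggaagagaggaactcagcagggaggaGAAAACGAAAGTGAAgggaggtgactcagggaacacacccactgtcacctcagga
Rsad2: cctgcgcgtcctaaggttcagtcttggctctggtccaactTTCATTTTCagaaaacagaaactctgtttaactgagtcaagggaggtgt
Irgm1: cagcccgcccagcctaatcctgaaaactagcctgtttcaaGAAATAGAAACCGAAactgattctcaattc
Oas1a: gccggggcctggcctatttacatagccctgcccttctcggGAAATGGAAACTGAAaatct
Trim30a: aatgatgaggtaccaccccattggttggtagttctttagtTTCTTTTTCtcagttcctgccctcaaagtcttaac

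All 5 genes lie on the minus strand of GRCm38.p6, and the stretches are upstream of the annotated start. The Oas3 stretch is chr5:120777680-120777774, the Rsad2 stretch chr12:26456523-26456611, the Irgm1 stretch chr11:48871421-48871490, the Oas1a stretch chr5:120907526-120907585 and the Trim30a stretch chr7:104465194-104465268. Rsad2, which encodes the antiviral enzyme viperin, was at 7.23 and 7.33 on the vector arrays, 5.62 and 5.76 on the parental arrays and 4.99 to 6.16 on the ITD arrays, and it was lower by 1.81 ± 0.24 (adjusted p 0.000147). Irgm1, an immunity-related GTPase, was at 9.98 and 9.96 with the vector, 8.72 and 8.74 in parental cells and 8.36 to 8.92 with ITD, and it was lower by 1.23 ± 0.12 (adjusted p 8.23e-06). Trim30a, a ubiquitin ligase, was lower by 1.01 ± 0.14 (adjusted p 0.000187). Oasl2, with one of the larger differences, had a window without the core, and Rtp4, Usp18 and Oas2 had no window in the table.

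Other genes set apart by the vector line were of myeloid cells. Ctss, the lysosomal protease cathepsin S, was at 9.78 and 9.86 with the vector, 5.34 and 5.11 in parental cells and ran from 5.54 to 8.02 (median 6.07) with ITD, and it was lower by 3.56 ± 0.46 (adjusted p 9.81e-05). Clec5a, a lectin of monocytes and neutrophils, was at 9.08 and 9.08 with the vector, 5.80 and 5.88 in parental cells and from 4.96 to 7.12 (median 5.89) with ITD, and it was lower by 3.20 ± 0.41 (adjusted p 9.65e-05). Cd14, the co-receptor for endotoxin, was at 6.72 and 6.58 with the vector, 4.86 and 5.41 in parental cells and 4.40 to 5.13 with ITD, and it was lower by 1.86 ± 0.19 (adjusted p 1.45e-05). These 3 were also high in the wild-type FLT3 line, at 9.69 and 9.69 for Ctss, 9.11 and 8.95 for Clec5a and 6.57 and 6.38 for Cd14. For them the vector line was not the only high one, since the wild-type FLT3 line was high too. Transduction and G418 selection, which both lines shared, cannot be told apart here.

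The wild-type line thus split the class. Its mean lay nearer the parental than the vector mean for 78 of the 165 genes set apart by the vector line and nearer the vector mean for 87. Among the 19 interferon response genes of the class it lay nearer the parental mean for 18. Ifitm6, an interferon-induced transmembrane protein found in myeloid cells, went with the vector line, at 11.15 and 11.21 with the vector, 8.55 and 7.69 in parental cells, 10.63 and 10.48 with wild-type FLT3 and 6.33 to 9.38 with ITD. Clec4n, which encodes the lectin Dectin-2, went with parental cells, at 7.56 and 7.70 with the vector, 5.0 and 4.60 in parental cells, 5.52 and 4.87 with wild-type FLT3 and 4.31 to 5.66 with ITD. Csta3, a stefin, was lower by 2.57 ± 0.40 (adjusted p 0.000471) and Slfn5, a Schlafen family member, was lower by 2.54 ± 0.31 (adjusted p 6.49e-05).

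Cd74, the invariant chain of MHC class II, was uneven over the ITD lines. It was at 9.54 and 9.54 on the vector arrays, 5.71 and 5.39 on the parental arrays and 9.76 and 9.70 on the wild-type arrays. The ITD lines ran from 6.53 to 9.95 (median 6.93), and line 7 was above the vector line while the other 8 were below it. The difference of -2.19 ± 0.59 (adjusted p 0.0201) was not called without either vector array (adjusted p 0.156 and 0.167). Of 8 MHC class II genes only Cd74 and H2-Aa were called, and H2-Aa was lower by 0.57 ± 0.17 (adjusted p 0.0355). Neither was called without either vector array.

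The 42 genes of this class that were higher in the ITD lines were, by the rule, lower in the vector line than in parental cells. Prss34, a protease of basophils and mast cells, was at 8.64 and 8.43 with the vector, 12.85 and 12.69 in parental cells and ran from 9.24 to 11.99 (median 10.92) with ITD. The ITD lines were above the vector line by 2.29 ± 0.42 (adjusted p 0.00177) and differed from parental cells by -1.94 ± 0.42 (adjusted p 0.00377), so they lay between the 2 controls. The related protease gene Prss28 was at 5.54 and 5.34 with the vector, 9.77 and 9.82 in parental cells and 6.13 to 8.34 with ITD, higher than the vector line by 1.87 ± 0.34 (adjusted p 0.00157). Neither was called without the second vector array (adjusted p 0.0524 and 0.0501). In 24 of the 165 genes the ITD lines were called between the controls in this way.

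Angpt1, which encodes the vessel and stem cell factor angiopoietin 1, was at 9.38 and 9.42 with the vector, 10.66 and 10.67 in parental cells and ran from 9.94 to 11.13 (median 10.66) with ITD. It was higher than the vector line by 1.28 ± 0.22 (adjusted p 0.000909) and differed from parental cells by 0.012 ± 0.22 (adjusted p 0.982). In the wild-type line Angpt1 was lower than in the vector line, at 8.01 and 7.50. Klf1, an erythroid transcription factor, was at 6.54 and 6.15 with the vector, 8.01 and 7.85 in parental cells and from 6.30 to 7.89 (median 7.58) with ITD, a rise of 1.1 ± 0.28 (adjusted p 0.014) that was lost without either vector array (adjusted p 0.0708 and 0.226). Of 16 erythroid and megakaryocyte genes 6 rose and none fell, against 8.82% and 5.21% of all genes. Without either vector array 1 rose, and without ITD line 7 9 rose.

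The remaining rises of this class were smaller. Siglec5, a sialic acid receptor, was at 7.03 and 6.95 with the vector, 9.47 and 9.23 in parental cells and 7.41 to 8.60 with ITD, a rise of 0.87 ± 0.23 (adjusted p 0.0179). Ncaph, a subunit of the condensin that compacts chromosomes, was higher by 0.82 ± 0.14 (adjusted p 0.000929), and Noc4l, a ribosome biogenesis factor, by 0.69 ± 0.12 (adjusted p 0.000813). Their differences from parental cells were 0.091 ± 0.14 (adjusted p 0.742) and -0.0059 ± 0.12 (adjusted p 0.982), neither called. Cd55, which shields cells from complement, Usp11, a deubiquitinase, and Tmem81 were higher by 0.67 ± 0.14 (adjusted p 0.00363), 0.67 ± 0.21 (adjusted p 0.0399) and 0.65 ± 0.11 (adjusted p 0.000691). Siglec5, Cd55 and Usp11 were not called without either vector array, and Usp11 lost its call in 10 of 21 settings.

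Most eosinophil and mast cell genes did not pass the test against the vector line. Prg2, the major basic protein of eosinophil granules, was at 9.37 and 9.56 with the vector, 12.32 and 12.30 in parental cells and ran from 7.96 to 11.71 (median 11.23) with ITD, the lowest in line 5. Its difference was 1.19 ± 0.66 (adjusted p 0.249), and that of Prg3, a relative of Prg2, was 1.83 ± 0.60 (adjusted p 0.0506). None of the 7 eosinophil genes measured was called, against 14.0% of all genes, but 3 rose without ITD line 5 and 2 without ITD line 6. Ear1, Ear2 and Siglecf had no value under those symbols, and Siglec5, called above, was not a member of the list. Of 16 mast cell and basophil genes 1 rose, Prss34, and 1 fell, Cd200r3. Averaged over the 7 eosinophil genes, the ITD lines ran from 6.17 to 8.29, against 7.05 and 7.08 for the vector line and 8.94 and 8.67 for parental cells.

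Of 17 cytokine receptor genes 5 fell and none rose, against 5.21% lower and 8.82% higher among all genes, among them Il2rb, a chain of the IL-2 receptor, which fell by 0.67 ± 0.18 (adjusted p 0.017). Csf3r, the receptor for G-CSF, fell by 1.45 ± 0.29 (adjusted p 0.0035). Only 1 gene of that list, Csf1r, was called without either vector array. The IL-3 receptor chains Il3ra and Csf2rb differed from the vector line by -0.0057 ± 0.14 (adjusted p 0.986) and -0.21 ± 0.30 (adjusted p 0.693), and they differed from parental cells by -0.99 ± 0.14 (adjusted p 0.000111) and -1.1 ± 0.30 (adjusted p 0.0157). Of 20 glycolysis genes 3 rose and 3 fell, with the lactate transporters moving apart: Slc16a3 fell by 0.82 ± 0.15 (adjusted p 0.00184) and Slc16a1 rose by 0.41 ± 0.084 (adjusted p 0.00371). Without either vector array no glycolysis gene rose.

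Of 18 cholesterol synthesis genes 3 rose, Idi1, Cyp51 and Lss, by 0.75 ± 0.24, 0.68 ± 0.17 and 0.49 ± 0.11, and none did without either vector array. Of 17 apoptosis regulators Bcl2l1 rose, and the death-promoting genes Bak1, Bmf and Bok were lower, with differences of -0.45 ± 0.11, -0.52 ± 0.14 and -0.37 ± 0.12, the falls all lost without either vector array. Bok and the cholesterol gene Idi1 each lost their call in 15 of 21 settings. In the list of 11 genes that respond to handling stress, Egr1 and Ier2 rose and Hmox1 and Fosb fell, with differences of -1.0 ± 0.25 and -0.57 ± 0.11. Ier2 and Hmox1 were not called without either vector array, nor Fosb without the second (adjusted p 0.0841).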

How the data were processed

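The arrays were Affymetrix Mouse Exon 1.0 ST arrays of 32D cells. The authors deposited log2 probe set values, and RMA with Affymetrix Expression Console 1.1 is what the submitters' processing notes name, while the genome build was not given in the sources used here. RMA quantile-normalises the arrays, so a shift shared by most genes would be removed. Of 1256831 probe sets, 318760 had 1 gene symbol in the platform annotation, and symbols were updated through RefSeq synonyms (18006 current, 4227 changed, 63 unmatched). A gene value was the mean of its probe sets whose mean over the 17 arrays exceeded the median of all such means, 4.60, which left 237584 probe sets and 20227 genes, 1987 of them with 1 probe set. Probe sets of close relatives (the Oas genes, Lyz1 and Lyz2, Prss28 and Prss34, the Clec4 genes, Csf2rb and Csf2rb2) may share signal.

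limma 3.58.1 in R 4.3.3 fitted 5 groups over 17 arrays with a mean-variance trend (12 residual degrees of freedom), and p-values were adjusted by Benjamini and Hochberg over all genes. The moderated two-sided test was checked on simulated data. Tables were made with Python 3.11.15 and pandas 2.3.3. The genes named were Flt3, the 12 largest rises and falls apart from both controls, the 10 largest rises and falls set apart by the vector line (with 3 or more probe sets, no overlap between ITD and vector arrays and no predicted-gene symbol), up to 4 called genes with the largest difference per list, and list members needed to account for a list. The genes, lists and classes were chosen with earlier results of these data known. The numbers of same-numbered control arrays did not pair them, since their deviations from the group means correlated between -0.118 and 0.092. Alternatives tried covered the arrays fitted, the probe set filter and summary, normalisation, the variance model and each vector, parental and ITD array left out.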

Additional observations from a re-analysis of the deposited data

Results flagged for a closer look

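In 9 of the 102 named genes examined, 1 ITD line lay farther from the other 8 than Dixon's 95% limit for 9 values allows. Chance alone puts about 1 in 20 groups past that limit. Line 7 was the distant one in 6 of these genes. Fbxo48 was lowest in line 7 at 6.73 (the next was 7.60), Klf1 at 6.30 (next 7.29) and Ttk at 8.26 (next 8.98). Ankrd22 was highest in line 7 at 7.47 (next 6.56), Cd74 at 9.95 (next 8.0) and Ccl4 at 7.07 (next 6.23). Chil1 was highest in line 6 at 7.47 (next 6.77). Adgre1 was lowest in line 4 at 7.19 (next 8.17), as was Pilrb1, a paired receptor gene read by 1 probe set, at 7.07 (next 8.61).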

How the results depend on the processing

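Of the counts of called genes, those under another set of arrays (13 arrays), no filter or a stricter filter on dim probe sets, the median of probe sets and a fit without a trend stayed within 1.5 times the reported ones. With a separate spread for ITD and control arrays, ITD and vector cells differed in 4738 genes, 2912 higher and 1826 lower, vector and parental cells in 1937, 2558 genes were apart from both controls and 656 were set apart by the vector line. After quantile normalisation of the gene values, vector and parental cells differed in 681 genes. By array ranges the vector line set apart 1317 genes. The cause of these differences was not tested.

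When each vector, parental and ITD array was left out in turn (the wild-type arrays were not), genes called between ITD and vector cells ran from 706 to 3720, those higher from 367 to 2381 and those lower from 339 to 1339, with the lowest counts without a vector array and the highest without ITD line 7. Genes called between ITD and parental cells ran from 1400 to 3897 and between vector and parental cells from 105 to 764. Genes apart from both controls ran from 488 to 1992, those set apart by the vector line from 41 to 311 and those in neither class from 163 to 1740. With the replicate number of the control arrays as a block, 2573 genes were called, 1387 were apart from both controls and 140 were set apart by the vector line, although the numbers did not pair the samples and ITD arrays carry none.

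Of the 102 called genes chosen by the size of their difference none changed direction in any of 21 settings that gave it a value. In all such settings 56 kept their call, while 46 lost it without a vector array and 14 in another setting. Ly6g and Clec4n had no value with only the brighter probe sets, so their calls were not tested there. List members named for other reasons are not in these counts. The vector line is 1 line read by 2 arrays, and dim probe sets limit low genes.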
